A study of Homo sapiens with 8 samples.

Results

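The binding of TCF1 at 4 genes of the intestinal crypt, LGR5, LGR4, SOX4 and SOX9, was followed by ChIP-seq in DLD-1 cells, a human colon cancer cell line with high endogenous Wnt signaling. The peaks described are those to which the deposited annotation gave the name of 1 of these genes, which is the gene with the nearest transcription start site (TSS). There were 26 such peaks among 23433 peaks in 6 lists.

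The cells carried a doxycycline-inducible, FLAG-tagged, dominant negative form of the E isoform of TCF1 (dnTCF1E), either wild type (dnTCF1EWT) or with a C-clamp that no longer binds DNA (dnTCF1Emut). Each protein was expressed from its own clonal line, so that the protein and the clone cannot be told apart. The groups were dnTCF1EWT and dnTCF1Emut cells without doxycycline (0 h) and after 2 or 9 h of doxycycline at 1 µg/mL, all immunoprecipitated with anti-FLAG beads. The duplicates of each condition are described as pooled before peaks were called, although the labels call most libraries a first replicate, so that what replication lies behind a list is uncertain. Either way there is 1 list per condition, no spread between replicates and no test for any difference below. Counts for the 4 genes are therefore given beside the share of all peaks in the same list.

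In the crypt, Wnt signals keep stem cells dividing. LGR5 marks these stem cells and, like its relative LGR4, is a receptor for R-spondins, secreted proteins that strengthen Wnt signaling by keeping the ubiquitin ligases RNF43 and ZNRF3 from removing Wnt receptors. SOX4 and SOX9 are transcription factors with an HMG box, the same type of DNA binding domain with which TCFs recognize 5′-CTTTGWWS-3′, called the Wnt Response Element (WRE). The C-clamp is a further DNA binding domain of TCF1E, which recognizes the GC-rich Helper site (5′-RCCGCC-3′) and its short form (5′-RCCG-3′). The lists give the number of matches to each motif within each peak, and each Helper site also contains a short Helper site.

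At 0, 2 and 9 h there were 1907, 5585 and 12996 peaks for dnTCF1EWT but 708, 1883 and 354 for dnTCF1Emut. The lowest MACS peak score was between 50.01 and 50.21 in every list. The score rises with the significance of a peak and is not scaled for sequencing depth, which is unknown from the lists, so that ranks within a list are given beside scores. Folds and ratios below are of scores and do not measure the amount of bound protein. A large part of the dnTCF1EWT peaks had their centers in Alu elements, short repeats found in many copies across the genome, with 53.3% of peaks at 0 h, 48.5% at 2 h and 76.0% at 9 h. The dnTCF1Emut lists held few Alu peaks, 0.478% at 2 h, and many peaks in simple (TA)n repeats instead, 60.2% at 0 h and 15.3% at 2 h. The part of these repeats in the results below was not tested.

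Of the 4 genes, LGR5 had the strongest peak. It was listed for dnTCF1EWT after 2 h of induction, had a score of 809.13 and ranked 36 of 5585. SOX4 had a peak in its only exon, with a score of 109.18, for dnTCF1EWT at 9 h. LGR4 and SOX9 had no peak within 2 kb of their TSSs in any list, and no dnTCF1Emut peak named for any of the 4 genes was closer than 215 kb to its TSS. The dnTCF1EWT 0 h list named none of the 4 genes, the 2 h list named them 6 times and the 9 h list 15 times, which is 0.107% and 0.115% of those lists. The dnTCF1Emut lists named only SOX9, with 1 peak at 0 h (0.141% of the list), 4 peaks at 2 h (0.212%) and none at 9 h. The numbers of peaks in whole lists moved in the same directions, up for dnTCF1EWT from 2 to 9 h and down for dnTCF1Emut.

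The promoters of LGR4 and SOX4, the 2 of the 4 genes matched in the promoter table used here, are shown beside the peaks of these genes, none of which lay there. These are the 250 bases before the RefSeq start of each gene on GRCh38.p14, printed on the strand of the gene, with Helper sites on either strand in capitals. LGR4 lies on the minus strand of chr11:27472791-27473040 and SOX4 on the plus strand of chr6:21593501-21593750.
LGR4: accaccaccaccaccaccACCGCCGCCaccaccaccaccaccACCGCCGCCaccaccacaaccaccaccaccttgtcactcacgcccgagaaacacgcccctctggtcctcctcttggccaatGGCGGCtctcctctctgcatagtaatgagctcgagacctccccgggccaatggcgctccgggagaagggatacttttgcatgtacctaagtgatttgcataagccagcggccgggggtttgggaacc
SOX4: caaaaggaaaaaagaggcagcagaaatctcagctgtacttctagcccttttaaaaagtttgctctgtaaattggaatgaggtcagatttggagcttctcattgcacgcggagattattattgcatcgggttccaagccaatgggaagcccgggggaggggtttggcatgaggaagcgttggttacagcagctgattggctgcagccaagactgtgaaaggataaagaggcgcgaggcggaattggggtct

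The LGR4 promoter has a GC content of 62.0% and held 5 Helper sites, some of them overlapping, and 7 short Helper sites, counted on both strands. The SOX4 promoter has a GC content of 48.8% and held neither form of the site. No WRE was found in either of them. Of 35116 human promoters of the same length, 35.9% held a Helper site and 2.77% held at least 5. A short Helper site was found in 74.2%, at least 7 of them in 26.5% and a WRE in 5.56%. The listed peak nearest to the LGR4 TSS in any list was 23363 bp away, and the nearest to the SOX4 TSS was 1316 bp downstream of it.

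LGR5 had 1 peak at 2 h of dnTCF1EWT induction and 4 peaks at 9 h. The 2 h peak lay at chr12:71834477-71835012 (hg19, the build of all peaks), was 536 bp long and was centered 931 bp downstream of the TSS, in intron 1 of 17 (NM_003667). With a score of 809.13 it stood 13.7-fold above the median of its list and within the top 0.645%. It ranked 3 of 333 peaks within 2 kb of a TSS and 16 of 2401 intronic peaks. The peak contained 1 WRE, 6 short Helper sites and 3 Helper sites at a GC content of 51.3%, a combination of both elements of dnTCF1E recognition. Among 110 peaks of the list with both a WRE and a Helper site it ranked 7, and among the 13 with a WRE and at least 3 Helper sites it ranked 2.

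At 9 h the same stretch of LGR5 intron 1 was covered by 2 shorter peaks. The stronger, at chr12:71834700-71834906, was 207 bp long, had a score of 123.2 and ranked 367 of 12996 (2.82%). It lay wholly within the 2 h peak and held 1 WRE, 3 short Helper sites and 1 Helper site. The weaker, at chr12:71834451-71834592, had a score of 59.56, ranked 4873, overlapped the 2 h peak by 116 bp and held 1 Helper site but no WRE. The lists give numbers of matches and not their positions. Since the stronger 9 h peak lies within the 2 h peak and each held 1 WRE, both counts are of the same WRE.

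**Figure D1:**
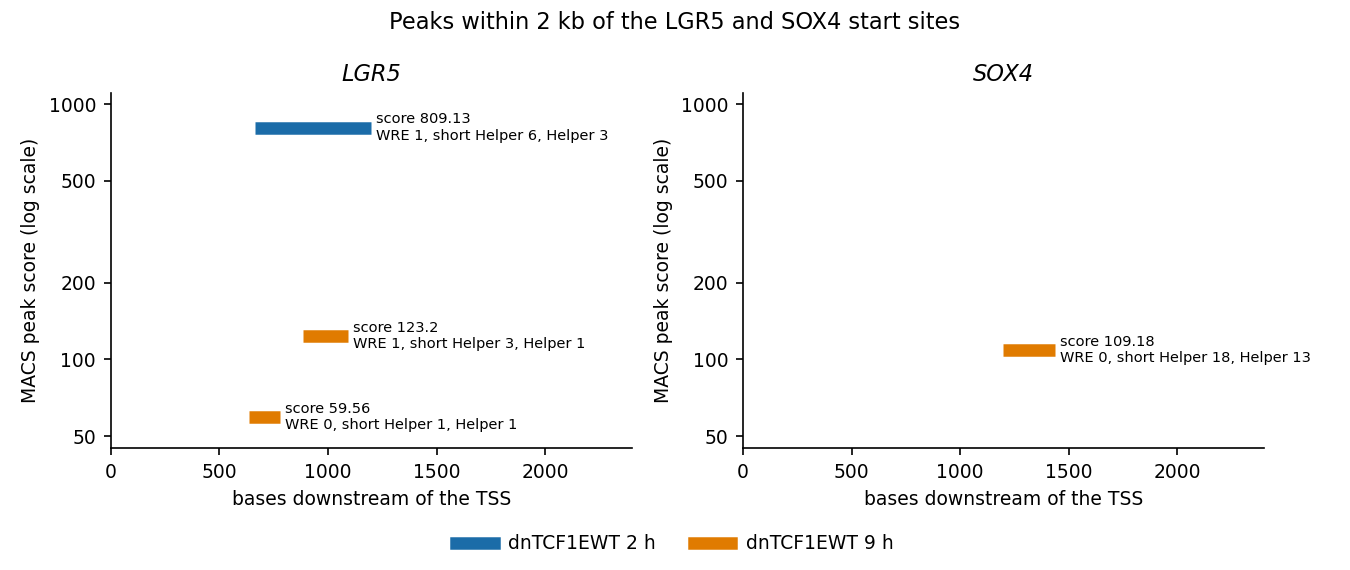
Peaks within 2 kb of the LGR5 (left) and SOX4 (right) TSSs. Bars span each peak in bases downstream of the TSS, their height is the MACS peak score on a log scale, and colors give the list (blue, dnTCF1EWT 2 h; orange, dnTCF1EWT 9 h). The 536 bp LGR5 peak with a score of 809.13 at 2 h is followed by 2 shorter peaks with scores of 123.2 and 59.56 at 9 h, and the SOX4 peak with a score of 109.18 is listed at 9 h alone.

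The LGR5 score was 6.57-fold lower at 9 h than at 2 h, a difference of 2.72 on the log2 scale. Only the stronger of the 2 peaks over this stretch at 9 h was used, and the ratio is of scores, not of binding. Of the 5585 peaks at 2 h, 833 (14.9%) overlapped a 9 h peak, and their median log2 ratio of the 2 h over the 9 h score was 0.33, with quartiles of -0.15 and 1.26. A ratio at least as large as that of LGR5 was found at 25 of the 833 peaks. Over the 92 kept peaks among the 100 highest of the 2 h list, which includes LGR5, the median log2 ratio was 2.01, and 19 of these had a ratio at least that of LGR5. Its ranks, at 0.645% of the 2 h list and 2.82% of the 9 h list, come from lists of different length and makeup and are no measure of a change in the peak. In the 9 h list it stood 2.17-fold above the median score.

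The other 2 LGR5 peaks at 9 h were also in intron 1. The peak at chr12:71863373-71863594, 29.7 kb downstream of the TSS, had a score of 71.98, ranked 1950 and held 3 short Helper sites but no WRE or Helper site. The peak at chr12:71887932-71888092, 54.2 kb downstream, lay in an AluY element, had a score of 66.81 and held 2 short Helper sites. Neither overlapped a peak of any other list. At least 4 peaks at 9 h were named for 440 of the 8182 genes in the list (5.38%).

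LGR4 had 1 peak, in the dnTCF1EWT 2 h list. It was 124 bp long, at chr11:27470910-27471033 in an AluJo element of intron 1 of 17 (NM_018490), 23.4 kb downstream of the TSS. Its score of 52.71 ranked 4468 of 5585, among the lower scores of the list, and it contained none of the 3 motifs. It was not listed at 9 h. The receptors LGR5 and LGR4 thus differed in the number of peaks, in their rank and in their distance from the TSS.

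Peaks of the other genes of the receptor pathway were weaker than the LGR5 peak. Of 7 genes (LGR6, RSPO1, RSPO2, RSPO3, RSPO4, RNF43 and ZNRF3), 2 were named at 0 h, 3 at 2 h and 4 at 9 h for dnTCF1EWT, and 2 at 2 h for dnTCF1Emut. Their peaks made up 0.105%, 0.0895% and 0.0308% of the dnTCF1EWT lists, so that the share was highest in uninduced cells, where RSPO2 had a score of 72.51. The highest score at 2 h was 133.84 at RNF43, a ubiquitin ligase that removes Wnt receptors, in an intron 26.0 kb from its TSS. A dnTCF1Emut peak at 2 h was listed at the same distance from RNF43, with a score of 72.31. The highest score of the group at 9 h was 72.0 at ZNRF3. All 4 peaks of the group at 9 h were in Alu elements, beside 76.0% of the list. No list named LGR6 or RSPO1.

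SOX4 had 3 peaks at 2 h and 5 peaks at 9 h for dnTCF1EWT, and none of the 2 h peaks overlapped a 9 h peak. The strongest was at chr6:21595171-21595406, in the only exon of the gene (NM_003107), 1316 bp downstream of the TSS. It was listed at 9 h with a score of 109.18, ranked 446 of 12996 (3.43%) and stood 1.92-fold above the median of the list. It ranked 9 of 43 exonic peaks and 51 of 669 peaks within 2 kb of a TSS.

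The SOX4 exon peak was dense in Helper sites. In 236 bp it contained 13 Helper sites and 18 short Helper sites but no WRE, with a GC content of 74.2%. These are numbers of matches without positions, so that some may overlap and the 13 need not be separate sites. At 9 h, 628 of 12996 peaks held a Helper site (4.83%), 10 held at least 13, and 2, SOX4 included, had as many per length. Its GC content was also among the highest, since 23 peaks had a GC content at least that of SOX4. Over the 58 peaks with a GC content of 70% or more, the median number of Helper sites was 2. How far the GC content accounts for the number of sites was not tested.

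The other 7 SOX4 peaks were in Alu elements, as were 48.5% of all dnTCF1EWT peaks at 2 h and 76.0% at 9 h. At 2 h they were 12.0 kb downstream of the TSS with a score of 60.27, 32.0 kb upstream with a score of 55.69 and 208 kb upstream with a score of 51.48. At 9 h they were 37.6, 90.5, 174 and 527 kb upstream, with scores of 61.13, 78.14, 70.24 and 55.11. The most distant of these was in intron 12 of 15 of another transcript (NM_017774) and carries the name SOX4 only because its TSS is the nearest. None of the 7 held a WRE or a Helper site, and 5 held short Helper sites.

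SOX9 was the only gene of the 4 with peaks for both proteins, all of them intergenic and upstream of the gene. For dnTCF1EWT there was 1 peak at 2 h, 160 kb upstream in a THE1B repeat, with a score of 54.83 and no motif. At 9 h there were 6 peaks, between 11.4 and 746 kb upstream and with scores from 50.79 to 63.53. All 6 were in Alu elements, beside 76.0% of the list. Of these, 5 held short Helper sites and none held a WRE or a Helper site. At least 6 peaks at 9 h were named for 90 genes of the list (1.10%).

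For dnTCF1Emut, SOX9 had 1 peak before induction, at chr17:69603902-69604359 in a (TA)n repeat 513 kb upstream, with a score of 90.17 and a GC content of 11.6%. It was listed again at 2 h with a score of 57.7, so that this site was found in cells without doxycycline. The other 3 peaks at 2 h were 215, 488 and 791 kb upstream, with scores of 54.72, 51.92 and 53.04. The first of these was in a (TA)n repeat with a GC content of 5.03%, the second held a WRE and the third held a short Helper site. The highest of the 4 ranked 1554 of 1883 (82.5%), and all were over 100 kb from the TSS, as were 36.3% of the list. None overlapped a SOX9 peak of dnTCF1EWT.

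**Figure D2:**
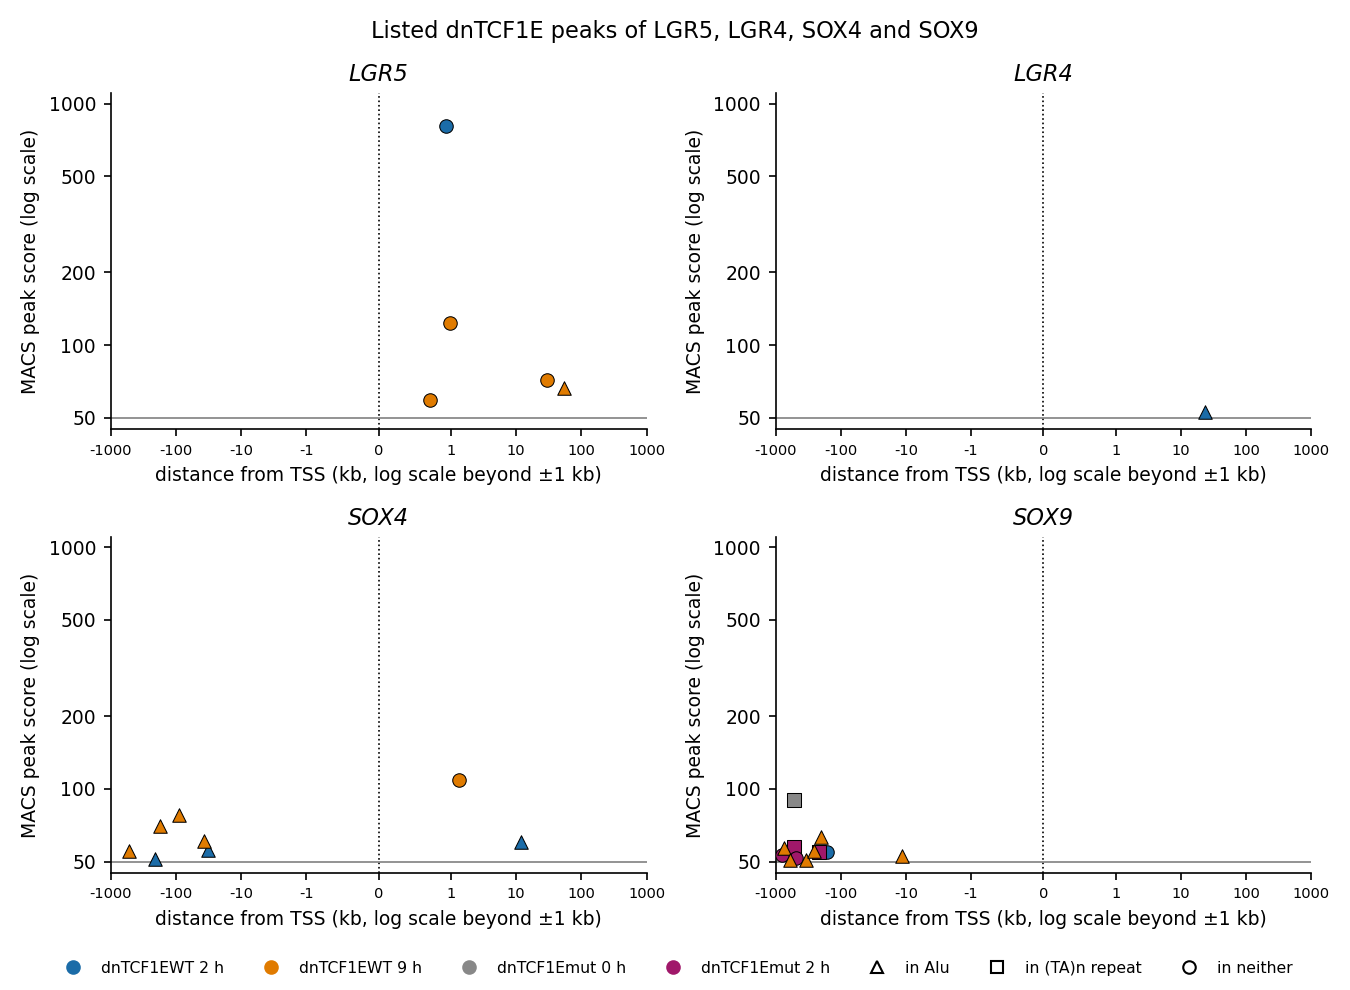
All 26 listed peaks of LGR5, LGR4, SOX4 and SOX9 by distance of the peak center from the TSS (horizontal axis, kb, log scale beyond 1 kb on either side) and MACS peak score (vertical axis, log scale), with the gray line at a score of 50. Colors give the list and symbols the repeat at the peak center. Scores above 100 are found for LGR5 at 2 and 9 h and for the SOX4 exon, near the TSS, and SOX9 peaks lie upstream with scores of 90.17 or less.

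Few of the 26 peaks were shared between lists. From 2 to 9 h of dnTCF1EWT, 1 of 6 peaks was kept, the LGR5 peak, where 14.9% of the whole list was kept. In the other direction 2 of 15 peaks at 9 h overlapped a 2 h peak, both at LGR5, where 6.47% of the list did. Of the 4 SOX9 peaks of dnTCF1Emut at 2 h, 0 overlapped a 9 h peak, where 12.4% of the list did, and 1 of 4 overlapped a 0 h peak, where 17.3% did. Between proteins at 2 h, 0 of 6 dnTCF1EWT peaks overlapped a dnTCF1Emut peak and 0 of 4 the reverse, against 9.44% and 27.9% of the lists. At 9 h, 0 of 15 dnTCF1EWT peaks overlapped a dnTCF1Emut peak, against 0.685% of the list. With so few peaks, counts of 0 do not set these genes apart from their lists.

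**Figure D3:**
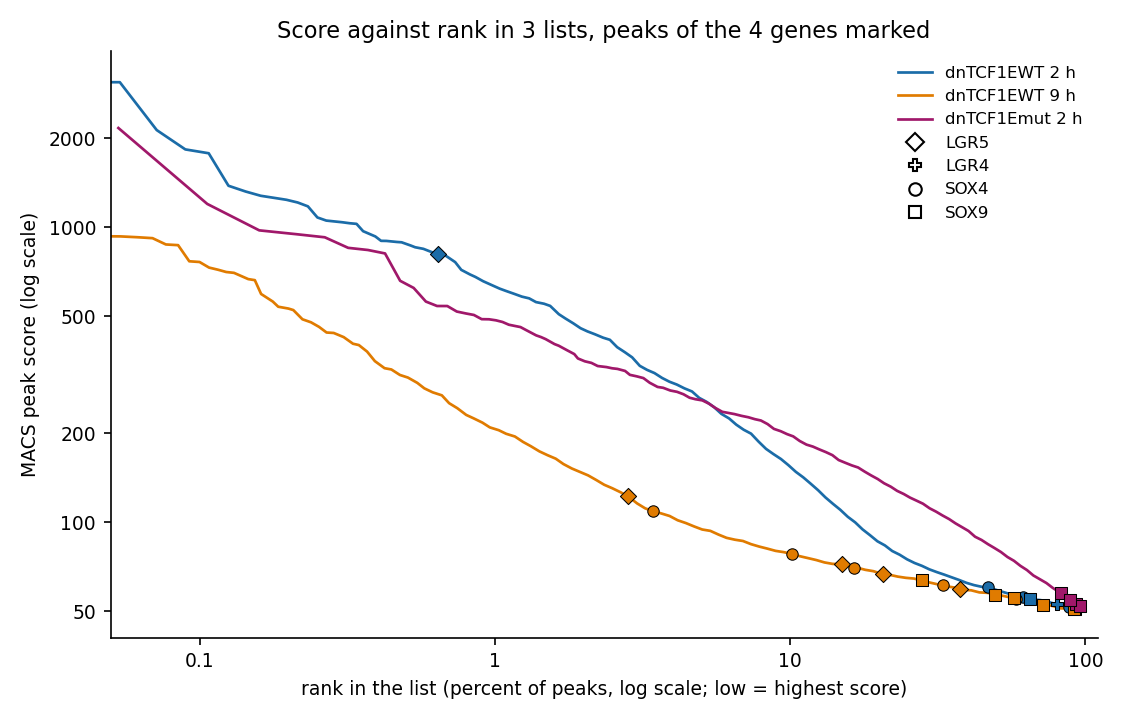
MACS peak score (vertical axis, log scale) against rank in the list as percent of peaks (horizontal axis, log scale, highest scores at the left). Lines are whole lists and symbols the peaks of the 4 genes in the dnTCF1EWT 2 h, dnTCF1EWT 9 h and dnTCF1Emut 2 h lists. LGR5 is at 0.645% at 2 h and 2.82% at 9 h and the SOX4 exon peak at 3.43%, while the dnTCF1Emut peaks of SOX9 lie at 82.5% and beyond.

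Of the 21 dnTCF1EWT peaks at 2 and 9 h, 15 were in Alu elements. These had scores from 50.79 to 78.14 and contained no WRE and no Helper site, although 11 held short Helper sites. They lay between 11372 and 746421 bp from the TSS. The 6 peaks outside Alu elements had scores from 54.83 to 809.13, and 2 held a WRE and 4 a Helper site. Those with scores of 809.13, 123.2 and 59.56 cover the same stretch of LGR5 intron 1, at 2 h or 9 h. Motifs there were thus counted more than once. Scores of 54.83, 59.56 and 71.98 among the 6 were within the range of the Alu peaks, and the Helper sites were those of the peaks near the LGR5 and SOX4 TSSs. At 2 h, 4 of 6 peaks were in Alu elements, beside 48.5% of the list, and at 9 h 11 of 15, beside 76.0%. The Alu peaks of the lists had median scores of 55.5 and 56.2 and rarely held a WRE (1.29% and 1.12%) or a Helper site (2.25% and 2.54%).

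By list, 1 of 6 peaks at 2 h of dnTCF1EWT held a WRE, 4 held a short Helper site and 1 held a Helper site, where the list had 16.3%, 54.1% and 7.23%. At 9 h the numbers were 1, 12 and 3 of 15, where the list had 6.56%, 55.4% and 4.83%. For dnTCF1Emut at 2 h they were 1, 1 and 0 of 4, where the list had 36.0%, 38.9% and 4.35%. All 4 peaks with a Helper site were those within 2 kb of the LGR5 and SOX4 TSSs, 1 of 6 peaks at 2 h and 3 of 15 at 9 h, beside 5.96% and 5.15% of the lists within that distance. At 9 h, 7 of 15 peaks were over 100 kb from the TSS, beside 22.5% of the list.

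**Figure D4:**
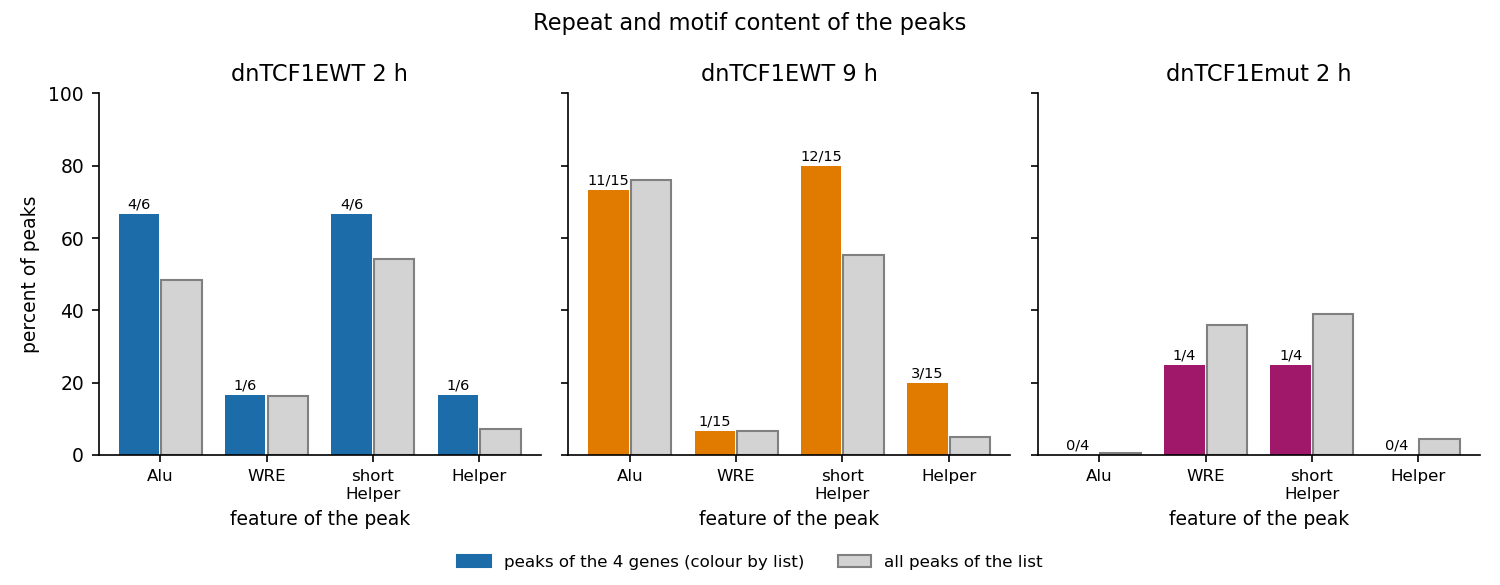
Percent of peaks (vertical axis) with the center in an Alu element, or with a WRE, a short Helper site or a Helper site, for peaks of LGR5, LGR4, SOX4 and SOX9 (colored bars, with counts) and for all peaks of the same list (gray bars). Alu peaks make up 4 of 6 and 11 of 15 of the dnTCF1EWT peaks and 0 of 4 of the dnTCF1Emut peaks, and Helper sites occur in 1 of 6, 3 of 15 and 0 of 4.

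Because a peak takes the name of the nearest TSS, stronger peaks in the same region can carry another name. All peaks within 500 kb of the 4 TSSs were therefore listed, 13 and 21 for dnTCF1EWT at 2 and 9 h and 6 for dnTCF1Emut at 2 h. On the side of SOX9 away from its own peaks, a dnTCF1EWT peak at 2 h had a score of 422.33, ranked 130 of 5585 and held 2 WREs and 6 short Helper sites. It lay 292 kb downstream of SOX9 and was named for the noncoding gene LOC100499467. No peak of the 9 h list or of dnTCF1Emut was listed there. Near SOX4, a dnTCF1EWT peak 324 kb downstream, named for LOC729177, had a score of 200.73 at 2 h and 58.2 at 9 h and held short Helper sites but no WRE.

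Near LGR5, a peak 290 kb upstream, named for the tetraspanin gene TSPAN8, was listed for both proteins. Its score was 279.93 for dnTCF1EWT at 2 h, 139.82 for dnTCF1EWT at 9 h and 216.86 for dnTCF1Emut at 2 h, with ranks of 253, 283 and 155. It contained 3, 2 and 3 WREs in these lists and 4 short Helper sites in each, but no Helper site. The intron 1 peak of LGR5, with a WRE and Helper sites, was listed for dnTCF1EWT alone, and the nearest dnTCF1Emut peak at 2 h was 281 kb upstream of the TSS. Absence from the dnTCF1Emut list was usual, since 9.44% of all dnTCF1EWT peaks at 2 h overlapped a dnTCF1Emut peak. The LOC100499467 peak, with 2 WREs and no Helper site, was also listed for dnTCF1EWT alone. A CDCA7 promoter peak with 1 Helper site was listed for both proteins at 2 h. Whether a peak below the score limit of the dnTCF1Emut list was present at LGR5 cannot be seen in the lists. Near LGR4, dnTCF1Emut had a peak named for CCDC34 at 2 h, 83.6 kb from the LGR4 TSS with a score of 111.18 and no motif, and a 2 h peak near BDNF was listed for dnTCF1EWT with a score of 130.54 and for dnTCF1Emut with a score of 53.65.

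**Figure D5:**
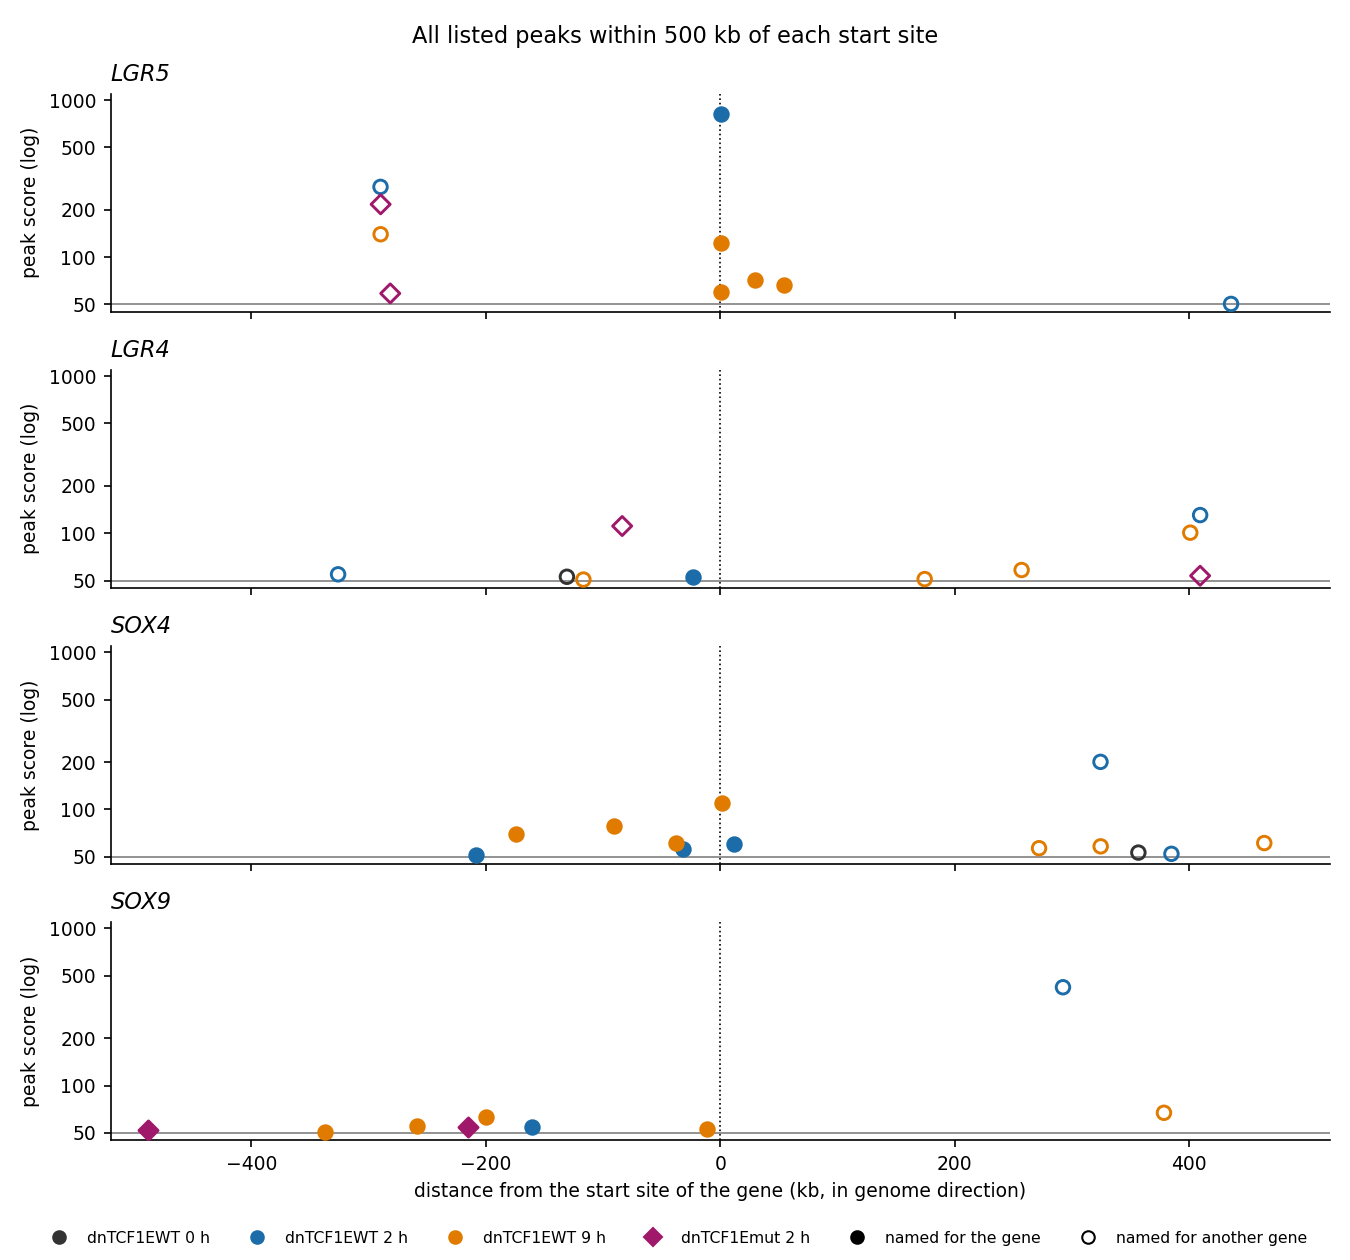
All listed peaks within 500 kb of the LGR5, LGR4, SOX4 and SOX9 TSSs by distance in genome direction (horizontal axis, kb) and MACS peak score (vertical axis, log scale). Filled symbols are named for the gene and open symbols for another gene, circles are dnTCF1EWT and diamonds dnTCF1Emut. The TSPAN8 peak 290 kb from LGR5 is listed for both proteins, and the highest peak around SOX9, with a score of 422.33, carries another name.

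Among 20 other genes of crypt stem cells or of Wnt-dependent crypt cells, 12 were named for dnTCF1EWT at 2 h with 19 peaks and 10 at 9 h with 29 peaks, against 6 genes at 0 h. As a share of the list their peaks did not increase, with 0.367% at 0 h, 0.340% at 2 h and 0.223% at 9 h. For dnTCF1Emut, LRIG1, RNF43 and CDCA7 were named at 2 h and no gene of the group at 9 h. The highest score at 2 h was 466.05 at CDCA7, in a promoter peak 0.482 kb upstream of the TSS with 1 Helper site, followed by AXIN2, a negative regulator of Wnt signaling, with 449.55. Both are below the 809.13 of LGR5. At 9 h the order differed, with 264.36 at AXIN2, 106.94 at EPHB3 and 99.05 at CDCA7, beside 123.2 at LGR5. The highest AXIN2 peaks were different sites, 127 kb from the TSS at 2 h and 4.40 kb from it at 9 h. A peak at the place of the EPHB3 peak, 58.9 kb upstream of the TSS, was also listed in uninduced cells, with a score of 129.46 that ranked 15 of 1907. The CDCA7 promoter peak was also listed for dnTCF1Emut at 2 h, with a score of 138.47.

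Of 10 other SOX genes named in any list, 4 were named for dnTCF1EWT at 2 h and 9 at 9 h, against 6 at 0 h. Their share of the list was highest in uninduced cells, with 0.315% at 0 h, 0.161% at 2 h and 0.154% at 9 h. Their highest peak was 45.6 kb from SOX1, with scores of 541.26 at 2 h and 437.67 at 9 h. It was the only SOX peak listed for dnTCF1Emut at 9 h, with a score of 54.72. At 9 h, 17 of their 20 peaks were in Alu elements, beside 76.0% of the list. None of the 20 held a Helper site or a WRE, beside 4.83% and 6.56% of the list. For dnTCF1Emut at 2 h, SOX6 was named, with a score of 115.29 at 209 kb from its TSS. A dnTCF1EWT peak at 2 h was listed at the same distance, with a score of 169.06.

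Genes with peaks in the same lists and with the most similar highest scores were taken as most like each of the 4, by the largest absolute log2 difference over those lists. Of 1585 genes named in the dnTCF1EWT 2 and 9 h lists alone, MYL10 (0.028), SULT1C4 (0.112) and SERBP1 (0.230) were the most like LGR5, with scores of 824.88 and 124.63 for MYL10. YWHAQ (0.005), TMEM101 (0.027) and NABP1 (0.041) were the most like SOX4. For LGR4, listed at 2 h alone, LINC00583 and SLC35G1 had the same score of 52.71 and ZNF600 one of 52.7, among 1314 genes. SOX9 shared its 4 lists with 56 genes, of which PTPRJ (0.160), STAG3L4 (0.204) and SNTG1 (0.280) were the most like it. Such likeness rests on 4 lists or fewer and describes the scores alone.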

How the data were processed

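The 6 ChIP-seq peak lists of DLD-1 cells were used, for each protein 1 at 0, 2 and 9 h. The submitters' processing notes name CASAVA 1.8.2, Bowtie2 2.0.0, MACS 1.3 and HOMER 3.16 with hg19. Per the paper's methods the authors pooled duplicates, whereas the labels call most libraries a first replicate, and the deposited peak score is the MACS score. The GC content was deposited as a fraction and is given in percent. Motif matches are the deposited numbers per peak. The input libraries and reads were not analysed here.

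Peaks named LGR5, LGR4, SOX4 or SOX9 were taken from all lists. Peaks sharing any base were called overlapping, with the highest-scoring overlapping peak used for ratios. Repeats were taken from the detailed annotation of the peak center. All peaks of these genes are named, with 3 lists of related genes, neighbors within 500 kb and the 3 genes of most similar scores. The genes and lists were chosen with earlier results of these data known. No difference was tested, since each condition is 1 list. Alternatives changed the score limit (above 67 or at least 100), the window, the overlap and the motif measure. The code that finds overlaps was checked on simulated peaks with known overlaps. Promoters were from a table of RefSeq promoters (GRCh38.p14), in which 2 of the 4 genes were matched. Python 3.11.15, NumPy 2.4.6, pandas 2.3.3 and matplotlib 3.10.9 were used.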

Additional observations from a re-analysis of the deposited data

Results flagged for a closer look

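The number of SOX9 peaks changed in opposite directions from 2 to 9 h of induction. It rose by 5 for dnTCF1EWT, from 1 to 6 peaks, and fell by 4 for dnTCF1Emut (a change of -4), from 4 peaks to none. Each condition is 1 list, so this difference was not tested. The whole lists moved alike, from 5585 to 12996 peaks and from 1883 to 354 peaks. All 6 dnTCF1EWT peaks at 9 h were in Alu elements, beside 76.0% of that list. Of the 4 dnTCF1Emut peaks at 2 h, 2 were in (TA)n repeats, beside 15.3% of that list.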

How the results depend on the processing

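Of 58 values recomputed with another setting, 33 kept to within 1.5 times a count or within the counting interval of a rank, 24 moved and 1 reversed. Some of the 33 could not differ, such as a stricter score limit or overlap where the count was already 0. Any change in a motif difference, and any value in matches per kb, was counted as moved or reversed whatever its size. The tally is therefore no measure of how stable the results are. The number of peaks of the 4 genes was 6 at 2 h and 15 at 9 h for dnTCF1EWT, 1 at 0 h and 4 at 2 h for dnTCF1Emut. With scores above 67 it was 1, 5, 1 and 0, and with scores of at least 100 it was 1, 2, 0 and 0. Counting any peak within 100 kb gave 4, 8, 0 and 1, and within 500 kb 13, 21, 0 and 6, with 2 at 0 h of dnTCF1EWT. Without Alu and (TA)n repeats, a setting chosen after seeing the data, it was 2, 4, 0 and 2. The LGR5 peak was no longer kept (0 of 6) when 50% of both peaks had to overlap, since the 9 h peak is 38.6% as long as the 2 h peak. Leaving out peaks that overlap a 0 h peak removed the highest dnTCF1Emut peak at 2 h, with a score of 57.7 and a rank at 82.5%. The highest peak left was another, with a score of 54.72, and ranked at 88.0%. The difference between dnTCF1EWT and dnTCF1Emut at 2 h in peaks with a WRE, -8.33 percentage points, reversed to 25 with the highest peak of each gene alone and was -0.296 matches per kb. For short Helper sites 41.7 percentage points became 50, or 5.42 matches per kb, and for Helper sites 16.7 became 25, or 0.933 per kb. These differences rest on 6 and 4 peaks, and on 4 peaks and 1 peak where only the highest peak of each gene was used. None of the 4 SOX9 peaks of dnTCF1Emut at 2 h had a score above 67, so that setting gave no kept share. No paired analysis was possible because each condition is 1 pooled list. The unknown depth limits every comparison of scores and numbers between lists.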
